A study of Mus musculus with 6 samples.

Results

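The genes described here are 9 transcription factor genes of the lateral ganglionic eminence (LGE) and the striatum: *Gsx1*, *Gsx2*, *Sp8*, *Sp9*, *Meis2*, *Ebf1*, *Foxp1*, *Foxp2* and *Six3*. They were taken by exact symbol from the deposited table of 45583 gene rows, and all 9 were found once. RNA had been sequenced from the dissected brain cortex of 6 male fetuses at GD15.5 (gestational day), with 1 library for each fetus and 3 fetuses in each group. All fetuses were of the Cyp19-EGFP strain, carried the genotype label "WT, SRY +", and came from dams injected from GD10.5 to GD14.5 with either vehicle (peanut oil) or bisphenol A (BPA, a plastic monomer that mimics estrogen) at 50 µg/kg. The strain, held on an FVBN background, can carry an artificial chromosome with *Cyp19a1* and a green fluorescent protein gene placed before its start codon, and the labels give wild type for all 6 fetuses. The labels name fetuses and not dams, so it is not known which fetuses shared a litter, and p-values measure the spread between these fetuses alone.

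The LGE is the part of the ventral telencephalon that lies beside the cortex and gives rise to the projection neurons of the striatum and to interneurons of the olfactory bulb. Its progenitors at the ventricle make the Gsx homeodomain factors, their dividing daughters switch on the *Dlx* genes, and the resulting precursors go on to make Sp8, Sp9, Meis2, Ebf1, Six3 and the forkhead factors Foxp1 and Foxp2 as they become olfactory bulb or striatal neurons. Several of these factors are also used by the cortex itself: *Foxp1*, *Foxp2* and *Meis2* are expressed in cortical neurons, and *Ebf1* is also expressed in the pericytes of brain vessels. In bulk tissue, fewer cells of a type and less RNA per cell cannot be told apart.

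Total counts ranged from 3444601 in BPA replicate 3 to 7180835 in vehicle replicate 2. Levels are given in counts-per-million (CPM) units, and the limit that a count of 0 allows, from counting error alone, lay between 0.422 CPM for the library with most counts and 0.875 CPM for that with fewest. The labelled tissue was checked against 16 markers of the pallium, the part of the telencephalon that forms the cortex. All 16 had enough counts to be tested, and *Neurod6*, a gene of cortical excitatory neurons, had mean levels of 738 CPM ± 106 in vehicle and 791 CPM ± 66.2 in BPA (SD, n = 3 each). Vehicle replicate 2 and BPA replicate 2 stood apart by their choroid plexus transcripts: the summed level of 8 markers was 230 CPM and 366 CPM in these libraries and between 12.6 and 20.1 CPM in the other 4.

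All 9 LGE and striatal genes had lower fitted levels in BPA than in vehicle, by log2 fold changes from -0.15 for *Meis2* to -0.77 for *Gsx1* and a median of -0.27, but no difference passed the test. By edgeR's quasi-likelihood test with Benjamini-Hochberg adjustment over 13741 genes, 0 of the 9 were under an adjusted p of 0.1 and each stood at 0.9998, while 0.00% of the genes tested were called. DESeq2, limma-voom, edgeR's exact test and the likelihood ratio test also called 0 of the 9, and DESeq2 called 3 genes in all. Before adjustment, 4 of the 9 had a p under 0.05 (*Six3*, *Foxp2*, *Sp8* and *Ebf1*), all with lower levels in BPA, against 2.20% of the genes tested, which divide into 1.18% lower and 1.02% higher in BPA. The 3 BPA libraries lay below all 3 vehicle libraries for 6 of the 9 (these 4 with *Foxp1* and *Sp9*), where 6.75% of the genes tested did not overlap, 3.56% with BPA lower and 3.19% with BPA higher. Over all genes tested, 49.5% were lower in BPA and the median log2 fold change was 0.0016. The members and the gene lists used below were chosen with earlier results of these data known. Their counts beside these shares are therefore descriptions and give no independent support. The count of 4 rested on single libraries, and the share of all genes with an unadjusted p under 0.05 also moved between fits. It was 1 without BPA replicate 1 (1.40% of all genes), 2 without vehicle replicate 1 (2.48%) and 2 without BPA replicate 2 (4.02%), and it was 2 with DESeq2 (0.917%) and with limma-voom or the exact test (2.09% each). Without vehicle replicate 2 and BPA replicate 2, the libraries with high choroid plexus transcripts, it was 3, but 6.99% of all genes then had such a p.

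**Figure D1:**
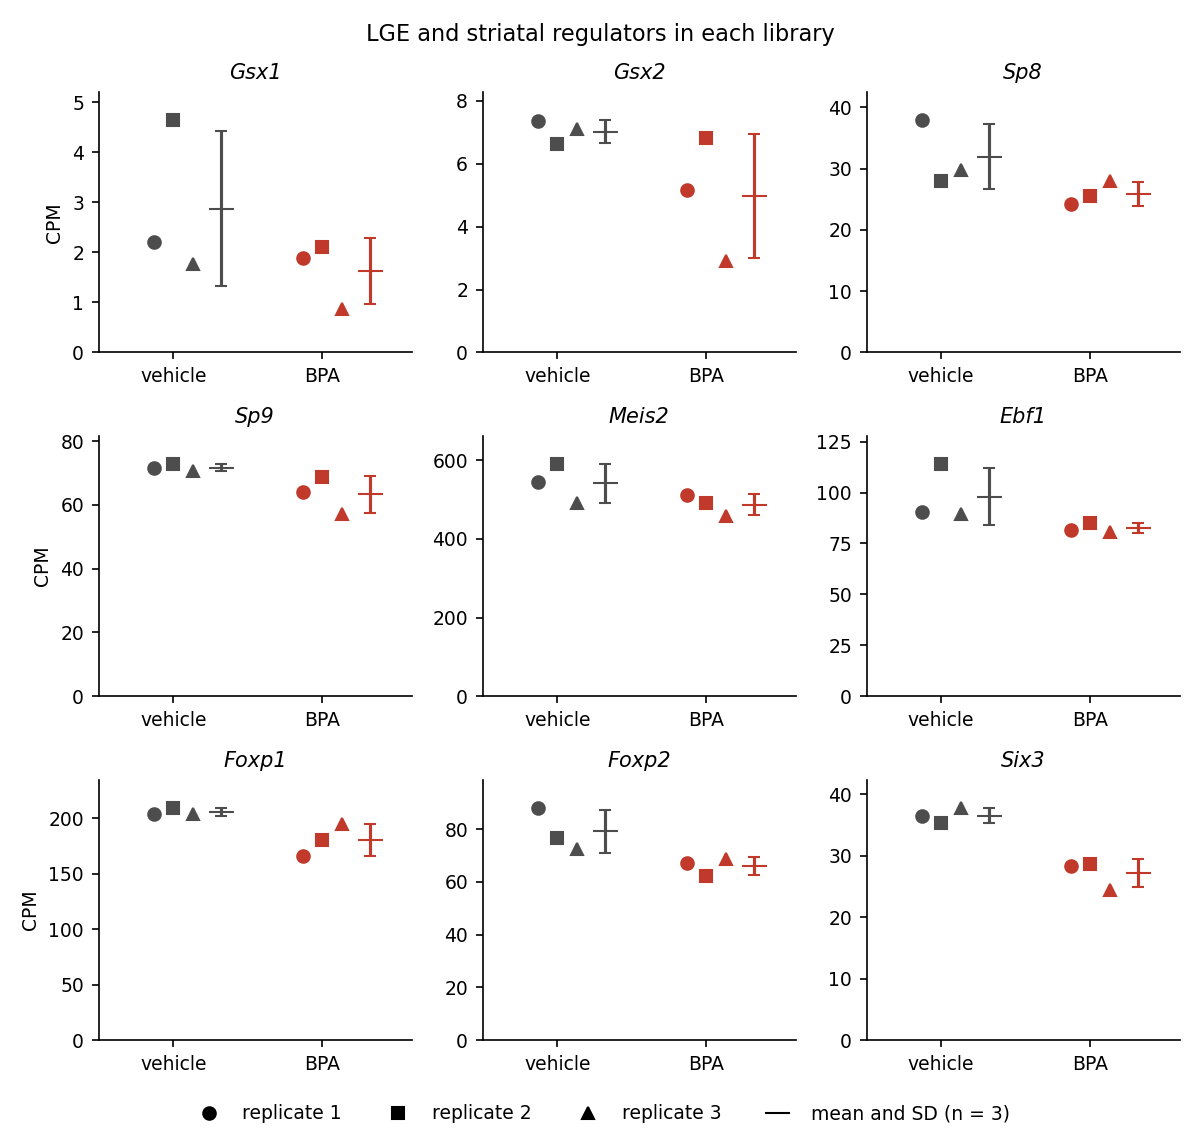
CPM (scaled by the TMM method) of the 9 genes in each library, with circles, squares and triangles for replicates 1 to 3 of each group and bars for the mean ± SD (n = 3). The BPA points lie below all vehicle points for *Sp8*, *Sp9*, *Ebf1*, *Foxp1*, *Foxp2* and *Six3*, and overlap them for *Gsx1*, *Gsx2* and *Meis2*.

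The members differed widely in level, which is given here per length, as CPM per kilobase (kb) of exons averaged over the 6 libraries. The length joins the exons of all annotated transcripts of a gene, so genes with many transcripts can come out lower. *Meis2* stood highest at 42.7 CPM per kb ± 3.87 (SD, n = 6), and its lowest library was above the highest library of any other member. *Foxp1* followed at 14.03 ± 1.23 and *Sp9* at 13.4 ± 1.18 CPM per kb, and these neighbors overlapped, with *Foxp1* higher in 4 of 6 libraries. *Ebf1* was at 9.25 ± 1.27 CPM per kb and below *Sp9* in all 6 libraries, although their ranges overlapped. *Sp8* at 6.34 ± 1.07 and *Six3* at 5.85 ± 0.996 CPM per kb overlapped each other, with *Sp8* higher in 4 of 6 libraries. *Foxp2* was at 4.44 ± 0.557 CPM per kb, below *Six3* in 6 of 6 libraries and above *Gsx2*, at 3.60 ± 1.01 CPM per kb, in 5 of 6. The place of *Foxp2* below *Six3* depends on length, 16.3 kb against 5.45 kb. In CPM alone *Foxp2* was the higher, with a mean of 72.6 against 31.8. *Gsx1* was lowest in every library, at 1.27 ± 0.714 CPM per kb. The order was therefore led by a precursor gene that the cortex also expresses, and it ended with the progenitor genes.

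**Figure D2:**
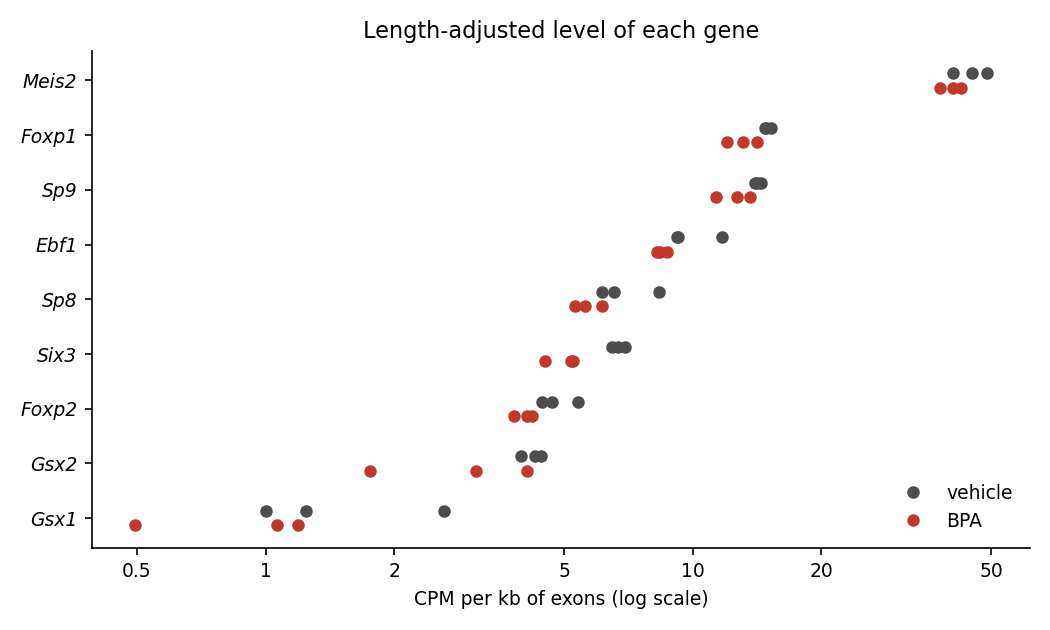
Level of each gene per length in each library, as CPM per kb of exons on a log axis, with vehicle in grey and BPA in red (n = 3 each). *Meis2* stands apart at the top and *Gsx1* at the bottom, while neighbors in between, such as *Foxp1* and *Sp9*, overlap.

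The upstream sequences of 4 members are shown because the genes lay lower in BPA together and span the sequence from progenitor to striatal neuron. RefSeq (GRCm38.p6) gave 13 windows of 250 bases before a transcript start for 8 of the 9 members (all but *Foxp2*). Exact matches to 6 motifs were sought on both strands: the GC box bound by Sp factors, the TATA box, the cores bound by homeodomain, Meis and forkhead factors, and the palindromic estrogen response element. Matches are in capitals below, on either strand, and no 2 different motifs overlapped. The stretches are chr5:147188446-147188695 for *Gsx1*, chr5:75075351-75075600 for *Gsx2*, chr2:73271676-73271924 for *Sp9* and chr17:85620584-85620789 for *Six3*, all on the plus strand and cut where an annotated exon begins. The *Six3* stretch lies before a RefSeq transcript start but within the span that GENCODE gives the gene, which begins at 85613608.
Gsx1: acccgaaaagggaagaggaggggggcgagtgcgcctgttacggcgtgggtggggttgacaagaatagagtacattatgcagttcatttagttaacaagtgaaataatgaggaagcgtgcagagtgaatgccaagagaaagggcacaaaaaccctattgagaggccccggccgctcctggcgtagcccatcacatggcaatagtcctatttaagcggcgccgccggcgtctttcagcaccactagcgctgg
Gsx2: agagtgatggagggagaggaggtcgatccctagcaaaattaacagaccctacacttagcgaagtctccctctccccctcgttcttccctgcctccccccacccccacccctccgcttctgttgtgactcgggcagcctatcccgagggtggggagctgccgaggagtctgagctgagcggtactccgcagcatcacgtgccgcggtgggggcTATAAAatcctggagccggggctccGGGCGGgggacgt
Sp9: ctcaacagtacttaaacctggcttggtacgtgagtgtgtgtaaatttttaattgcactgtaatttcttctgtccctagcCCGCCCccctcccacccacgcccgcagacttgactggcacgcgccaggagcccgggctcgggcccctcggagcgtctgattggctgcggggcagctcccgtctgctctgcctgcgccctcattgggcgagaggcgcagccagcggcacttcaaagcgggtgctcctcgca
Six3: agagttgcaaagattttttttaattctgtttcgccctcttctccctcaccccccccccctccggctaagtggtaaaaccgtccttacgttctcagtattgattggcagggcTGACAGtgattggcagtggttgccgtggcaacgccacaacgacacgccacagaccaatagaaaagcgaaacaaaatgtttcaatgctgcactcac
*Gsx1* and *Gsx2*, the related pair, differed here: *Gsx2* had a TATA box and a GC box, and *Gsx1* had none of the 6 motifs. The GC box, with the letters GGGCGG, was in 5 of the 13 windows (38.5%, from *Gsx2*, *Sp8*, *Sp9* and *Foxp1*) and in 32.7% of the 32841 promoter windows of the RefSeq table. *Sp8* and *Foxp1* have 3 windows each, so the windows are not independent. The TATA box, searched as TATAAA, was in 3 of the 13 windows (23.1%, from *Gsx2*, *Sp8* and *Meis2*) against 12.4% of all windows, and 238 of the 250 bases of the *Meis2* window are annotated exon. The Meis core, searched as TGACAG, was in 3 of the 13 windows (23.1%, from *Sp8*, *Foxp1* and *Six3*) against 15.9% of all windows. The homeodomain core, searched as TAATTA, was in 2 of the 13 windows (15.4%, from *Sp8* and *Foxp1*) against 4.84% of all windows. The forkhead core, searched as GTAAACA (3.17% of all windows), and the estrogen response element (0.0639%) were in no member's window. A match describes letters and not a bound site, and a missing match says nothing of the factor.

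The progenitor genes came first. *Gsx2* (chromosome 5, 75075601 to 75077893, GRCm38, plus strand), which gives LGE progenitors their identity and represses cortical genes there, was at 7.35, 6.62 and 7.10 CPM in vehicle replicates 1 to 3 and at 5.18, 6.83 and 2.92 CPM in BPA. BPA replicate 2 lay within the vehicle range and the other BPA libraries below it. The log2 fold change was -0.43 (SE 0.264, 95% interval -0.99 to 0.13, unadjusted p = 0.126 in edgeR's test). *Gsx1* (chromosome 5, 147188696 to 147190947, plus strand), a paralog made in the same progenitors that favors their maturation, was at 2.21, 4.65 and 1.77 CPM in vehicle and at 1.88, 2.11 and 0.875 CPM in BPA. These values rested on 3 to 33 counts per library, BPA replicate 3 being at 3 counts, and the groups overlapped. Its log2 fold change of -0.77 (SE 0.424, interval -1.67 to 0.13, unadjusted p = 0.0903 in edgeR's test) was set by 1 library: without vehicle replicate 2 it was -0.21. That of *Gsx2* was -0.23 without BPA replicate 3 and -0.71 without BPA replicate 2.

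The Sp zinc finger genes act in LGE precursors. *Sp8* (chromosome 12, 118846329 to 118852576, plus strand) is used in the dorsal LGE by precursors of olfactory bulb interneurons, and also by cortical progenitors. It was at 37.9, 28.0 and 29.8 CPM in vehicle and at 24.2, 25.5 and 28.0 CPM in BPA. The groups did not overlap, but only by 0.0061 CPM, between vehicle replicate 2 and BPA replicate 3, and they overlapped when libraries were scaled by size alone, by DESeq2 size factors or by upper quartile. They also overlapped when genes were filtered by a minimum of 10 CPM in 3 libraries, and without vehicle replicate 3. The log2 fold change was -0.31 (SE 0.145, interval -0.62 to -0.0053, unadjusted p = 0.0466 in edgeR's test), and -0.17 without vehicle replicate 1.

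*Sp9* (chromosome 2, 73271925 to 73284706, plus strand), which acts with Sp8 and is needed for striatal neurons of the indirect pathway, was at 71.5, 72.9 and 70.6 CPM in vehicle and at 63.9, 68.9 and 57.2 CPM in BPA. All 3 BPA libraries were lower, with a gap of 1.69 CPM. The vehicle libraries were the tighter group, with an SD of 1.17 CPM against 5.88 CPM in BPA. The log2 fold change of *Sp9* was -0.17 (SE 0.110, interval -0.41 to 0.061, unadjusted p = 0.137 in edgeR's test). The exons of *Sp9* overlap those of *Cir1*, a gene on the opposite strand, over 270 bases, 5.35% of the exonic length of *Sp9*. *Cir1* had from 16 to 40 counts per library, against 196 to 518 for *Sp9*.

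*Meis2* (chromosome 2, 115863064 to 116065839, minus strand), a homeodomain cofactor that works with Dlx factors in LGE precursors, was at 544, 589 and 491 CPM in vehicle and at 512, 490 and 458 CPM in BPA. The groups overlapped, vehicle replicate 3 lying among the BPA libraries. Its log2 fold change of -0.15 (SE 0.0965, interval -0.36 to 0.051, unadjusted p = 0.131 in edgeR's test) was the smallest of the 9 in size, and was -0.087 without vehicle replicate 2.

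Of the genes of striatal projection neurons, *Six3* differed most clearly. *Six3* (chromosome 17, 85613608 to 85629302, plus strand), a homeodomain gene needed with *Sp9* for indirect pathway neurons, was at 36.5, 35.3 and 37.9 CPM in vehicle and at 28.3, 28.6 and 24.5 CPM in BPA. The groups stood 6.73 CPM apart, more than the SD of 1.27 CPM within vehicle or 2.27 CPM within BPA. The level in BPA was 0.749 times that in vehicle (interval 0.624 to 0.899), a log2 fold change of -0.42 (SE 0.124) with an unadjusted p of 0.0040, the 19th smallest of 13741, and 0.9998 after adjustment in edgeR's test. Leaving out each library in turn gave log2 fold changes from -0.46 to -0.36 and unadjusted p-values from 0.0051 to 0.0191, under 0.05 in 6 of 6 fits. *Six3os1*, the noncoding gene beside it on the opposite strand, shares 106 exonic bases with *Six3*. It was at 28.7, 22.4 and 27.4 CPM in vehicle and at 22.3, 21.8 and 23.3 CPM in BPA, with overlapping groups and a log2 fold change of -0.22 (SE 0.142, unadjusted p = 0.140). Since it is not stated whether the counting used strand, reads from the shared bases cannot be assigned.

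*Foxp2* (chromosome 6, 14901349 to 15441977, plus strand), a forkhead gene of striatal and deep-layer cortical neurons that is linked to speech in humans, was at 88.2, 76.7 and 72.6 CPM in vehicle and at 67.1, 62.2 and 68.9 CPM in BPA. All BPA libraries were lower, by at least 3.72 CPM. The log2 fold change was -0.27 (SE 0.113, interval -0.51 to -0.025, unadjusted p = 0.0325 in edgeR's test), and ranged from -0.32 to -0.18 over the fits that left out 1 library.

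Its paralog *Foxp1* (chromosome 6, 98925338 to 99522721, minus strand), which is made by most striatal projection neurons and by many cortical ones, was at 204, 210 and 204 CPM in vehicle and at 166, 180 and 194 CPM in BPA. The vehicle libraries were nearly alike, with an SD of 3.36 CPM, while those of BPA were spread with an SD of 14.4 CPM and all lay lower. The log2 fold change was -0.20 (SE 0.0950, interval -0.40 to 0.0065, unadjusted p = 0.0569 in edgeR's test), and -0.14 without BPA replicate 1.

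*Ebf1* (chromosome 11, 44617317 to 45008091, plus strand), a helix-loop-helix gene of differentiating direct pathway neurons, was at 90.3, 114 and 89.5 CPM in vehicle and at 81.8, 85.2 and 80.5 CPM in BPA. The BPA libraries clustered within an SD of 2.39 CPM below all vehicle libraries, and vehicle replicate 2 stood high. The log2 fold change was -0.25 (SE 0.116, interval -0.50 to -0.0028, unadjusted p = 0.0478 in edgeR's test), and -0.12 without vehicle replicate 2. Beside it, the 14 markers of vessels, pericytes and meninges summed to between 269 and 329 CPM in vehicle and between 262 and 307 CPM in BPA. Of the 13 tested, 7 were lower and 6 higher in BPA. An unadjusted p under 0.05 was found for 0 of the 13, against 2.20% of all genes tested. *Rgs5* and *Pdgfrb*, defining genes of pericytes, were at 62.5 CPM ± 2.04 and 36.8 CPM ± 4.10 in vehicle. In BPA they were at 58.9 CPM ± 3.97 and 34.4 CPM ± 1.81 (SD, n = 3 each). Their log2 fold changes were -0.090 (SE 0.109) and -0.091 (SE 0.127). *Kcnj8* and *Abcc9*, other pericyte genes of the list, were higher in BPA, by log2 fold changes of 0.090 (SE 0.275) and 0.074 (SE 0.142). Each of these values was smaller in size than its SE.

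**Figure D3:**
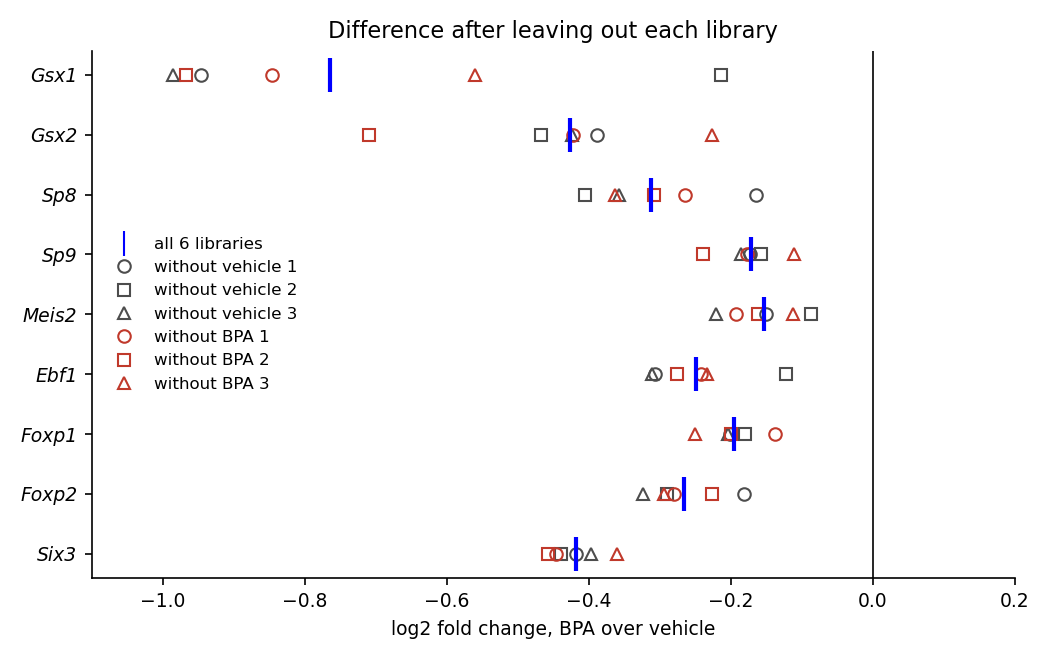
Log2 fold change of each gene (BPA over vehicle) with all 6 libraries, as a blue bar, and after leaving out each library in turn, as open symbols. Every value is below 0, *Six3* stays between -0.46 and -0.36, and *Gsx1* moves to -0.21 without vehicle replicate 2.

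How the members varied together was described over the 6 libraries by correlations of log2 CPM, which include the group difference and share library depth. All 36 pairs had a positive Pearson r, with a median of 0.62. After the mean of each group was taken away, 19 of the 36 were positive and the median was 0.069. Since all 9 members were lower in BPA, the positive values over 6 libraries restate that difference. Within groups the values of r went both ways, with 0.96 for *Gsx2* with *Sp9*, 0.92 for *Gsx2* with *Six3*, 0.80 for *Sp9* with *Six3*, 0.90 for *Gsx1* with *Meis2*, 0.84 for *Gsx1* with *Ebf1* and 0.80 for *Sp8* with *Foxp2*. *Foxp1* ran against *Six3* at -0.80 within groups. In BPA replicate 3, the shallowest library, *Gsx1*, *Gsx2*, *Sp9*, *Meis2*, *Ebf1* and *Six3* were at their lowest of all libraries, while *Foxp1*, *Foxp2* and *Sp8* were at the highest of their BPA group.

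The genes outside the list with the pattern most like each member, up to 3 for each, were found by Pearson's r over the same 6 libraries among 13732 genes, of which between 47 and 164 exceeded an r of 0.9 with a given member. They were *Zeb1* and *Zbed3* for *Gsx2* (r = 0.991 to 0.994), *Rplp2*, *Smarce1* and *Ugt8a* for *Gsx1* (0.98 to 0.99), *Zbed3*, *Npm3* and *Cuta* for *Sp9* (0.98 to 0.99), and *Gm7332*, *D2hgdh* and *Fundc1* for *Sp8* (0.972 to 0.995). For *Meis2* they were *Fbxl19*, *Mettl21a* and *Gm10093* (all 0.98), for *Ebf1* *Foxj2*, *Gfer* and *Sh3rf1* (0.98 to 0.99), for *Foxp1* *Zbtb8os*, *Dlx6* and *Zdhhc23* (0.98 to 0.99), for *Foxp2* *Stk17b*, *Cog5* and *Adamts5* (0.98 to 0.99), and for *Six3* *Fabp3-ps1*, *Stk33* and *Inpp5d* (all 0.99). *Dlx6* is the only one of them that is also among the LGE genes described next. With 6 libraries, many genes reach such values.

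The other genes of the LGE pathway were examined next, first those of progenitors and precursors. All 12 listed genes were lower in BPA by fitted log2 fold changes from -0.38 to -0.043 (median -0.19), and 0 passed the adjusted threshold. Of the 12, 1 had an unadjusted p under 0.05, against 2.20% of all genes tested. The groups did not overlap for 5, against 6.75% of all genes (3.56% with BPA lower). The gene with such a p was *Dlx1*, a homeobox gene that drives GABAergic fate and the most abundant of the 12 per length, at 364 CPM ± 15.55 in vehicle and 313 CPM ± 25.9 in BPA without overlap (SD, n = 3 each), a log2 fold change of -0.21 (SE 0.0945). The others without overlap were *Dlx5* (log2 fold change -0.22), *Dlx6* (-0.36), *Meis1* (-0.17) and *Gad2*, which encodes a GABA-synthesizing enzyme (-0.14). The separation of *Meis1* was as narrow as that of *Sp8*, its nearest vehicle and BPA libraries both being at 30.0 CPM. That of *Gad2* was also narrow, with 158.7 CPM in vehicle replicate 3 and 158.5 CPM in BPA replicate 1. *Meis1* overlapped when libraries were scaled by DESeq2 size factors or by size alone, and *Gad2* when scaled by upper quartile. With no filter *Meis1*, *Gad2* and *Dlx5* all overlapped. The abundant *Dlx2* (-0.29) overlapped between groups. All were at 0.9998 after adjustment in edgeR's test. How much of these levels came from cells of the LGE and how much from other cells was not tested. Of the 6 tested markers of the medial ganglionic eminence and preoptic area, described below, 5 were also lower in BPA and 1 was higher.

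Of 18 genes of striatal neurons, 12 were lower and 6 higher in BPA by fitted log2 fold changes from -0.43 to 0.27 (median -0.12), again with 0 past the adjusted threshold. Those with an unadjusted p under 0.05 were 3, all lower in BPA, against 2.20% of all genes tested (1.18% lower in BPA). *Isl1*, a homeodomain gene of direct pathway neurons, was at 45.1 CPM ± 5.57 in vehicle and 35.2 CPM ± 3.90 in BPA without overlap (SD, n = 3 each), a log2 fold change of -0.36 (SE 0.132). *Rxrg*, a retinoid receptor gene, was at 32.9 CPM ± 7.68 and 24.5 CPM ± 3.04 (log2 fold change -0.43, SE 0.170), and *Adora2a*, the adenosine receptor gene of indirect pathway neurons, at 19.3 CPM ± 3.26 and 14.6 CPM ± 1.59 (log2 fold change -0.38, SE 0.170), both with overlapping groups (SD, n = 3 each). *Zfp503*, a zinc finger gene of the developing striatum, did not overlap, at 42.5 CPM ± 0.985 and 34.3 CPM ± 6.89 (log2 fold change -0.29, SE 0.139). The abundant *Bcl11b*, shared by striatal and deep-layer cortical neurons, had a log2 fold change of -0.11 (SE 0.0986), and *Zfp521*, a zinc finger gene also among the 3 most abundant per length, 0.089 (SE 0.125). The dopamine receptor genes *Drd1* and *Drd2*, which mark the direct and indirect pathways in the mature striatum, were low in these libraries, at 11.0 CPM ± 2.04 and 7.43 CPM ± 1.16 in vehicle and 12.3 CPM ± 1.80 and 6.76 CPM ± 1.76 in BPA (SD, n = 3 each). After adjustment all of these were at 0.9998 in edgeR's test.

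**Figure D4:**
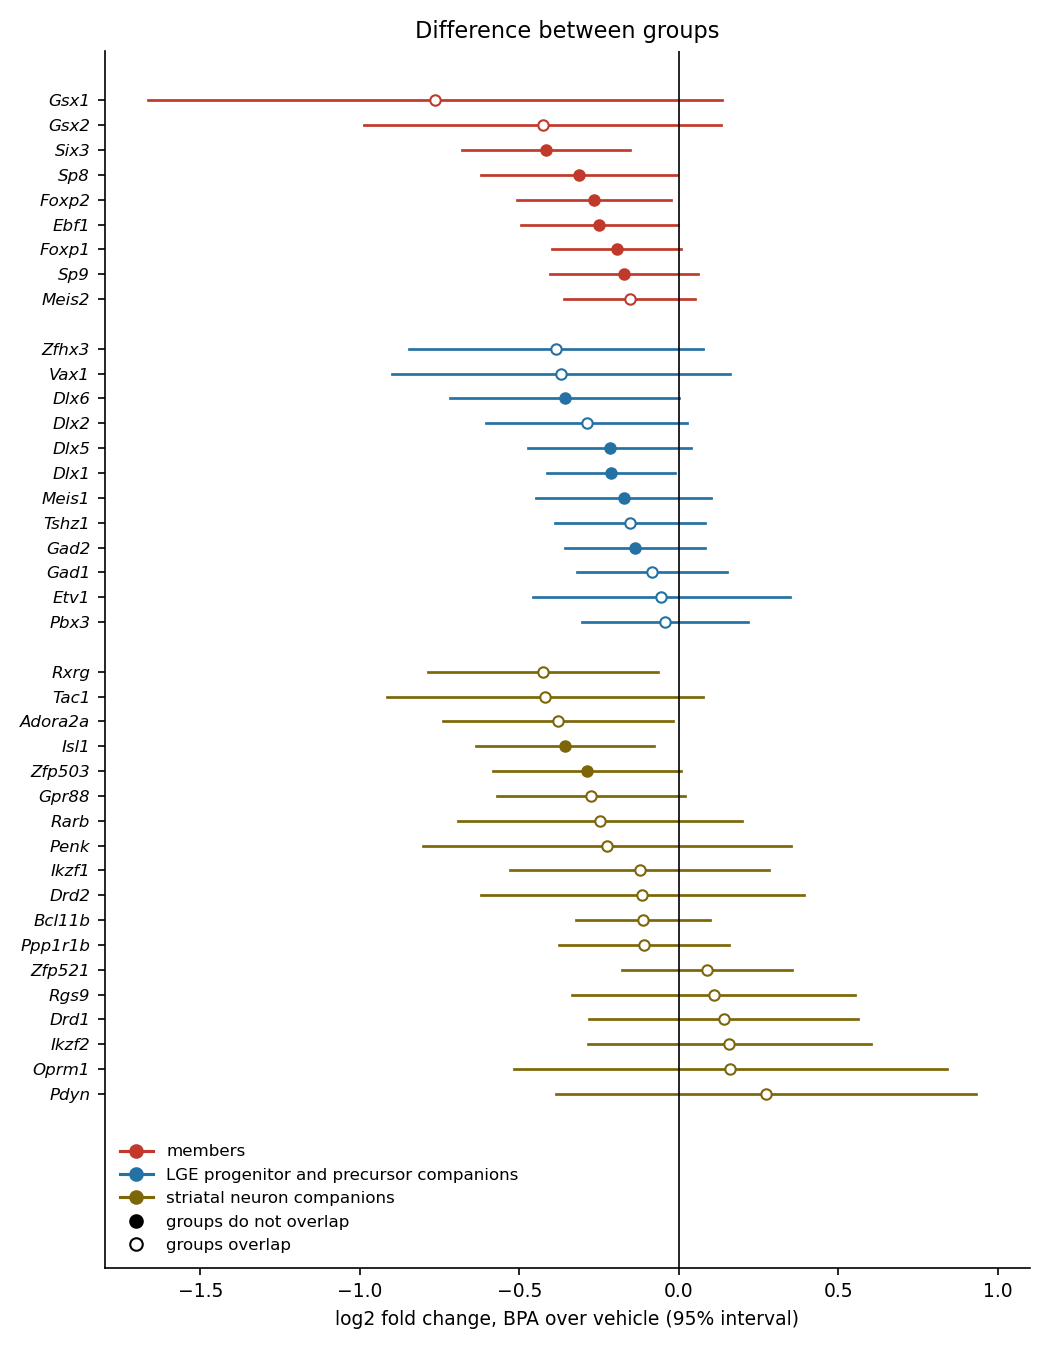
Log2 fold change (BPA over vehicle) with its 95% interval for the 9 members, the 12 other LGE progenitor and precursor genes and 18 striatal neuron genes. Filled points mark genes whose 3 BPA and 3 vehicle libraries do not overlap, and all members and all 12 progenitor and precursor genes lie below 0.

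Close relatives of the members gave a comparison within gene families. *Meis1*, already described as an LGE precursor gene, is also a relative of *Meis2* and is counted in both lists. Of 18 paralogs, 13 had enough counts to be tested, of which 7 had lower and 6 higher levels in BPA, the median log2 fold change being -0.013, and 0 passed the adjusted threshold in edgeR's test. The most abundant per length were *Foxp4* (log2 fold change -0.072, SE 0.128), *Meis3* (-0.013, SE 0.132) and *Sp3* (0.0041, SE 0.0947), and the direction of all 3 turned when some single libraries were left out, to highest values of 0.096 and 0.16 and a lowest value of -0.024 respectively. *Ebf3*, a relative of *Ebf1*, was the 1 paralog with an unadjusted p under 0.05 and went the other way, from 21.4 CPM ± 2.66 to 27.4 CPM ± 2.38 (SD, n = 3 each), a log2 fold change of 0.36 (SE 0.143) without overlap. The only other paralog without overlap was *Meis1*, lower in BPA. By comparison, 2.20% of all genes tested had an unadjusted p under 0.05 and 6.75% did not overlap. *Foxp3*, *Sp6*, *Sp7*, *Six2* and *Six6* were not tested, and *Sp6* and *Six6* had 0 counts in every library.

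Markers of neighboring tissue are given beside these results, since a dissection can hold more or less of it. The 8 markers of the medial ganglionic eminence (MGE) and preoptic area summed to between 317 and 352 CPM in vehicle and between 260 and 284 CPM in BPA, without overlap. Of the 6 tested, 4 had an unadjusted p under 0.05, all lower in BPA, against 2.20% of all genes tested (1.18% lower in BPA). Among them was the defining MGE gene *Nkx2-1*, with 35.9 CPM ± 8.79 in vehicle and 14.8 CPM ± 5.48 in BPA (SD, n = 3 each). Its log2 fold change of -1.25 was larger in size than that of any LGE member. The other 3 were *Lhx6* (log2 fold change -0.21), *Lhx8* (-1.34) and *Gbx1*. The defining genes *Nkx2-1*, *Lhx6* and *Lhx8* had counts in all 6 libraries, while *Nkx6-2* averaged 0.274 CPM in vehicle and 0.108 CPM in BPA. The 16 pallial markers summed to between 3270 and 4157 CPM in vehicle and between 3768 and 3983 CPM in BPA, with overlap, and of these 13 were higher and 3 lower in BPA (median log2 fold change 0.077), 0 of them at an unadjusted p under 0.05. The 4 striatal neuron members summed to between 403 and 436 CPM in vehicle and between 343 and 368 CPM in BPA, the 3 precursor members to between 591 and 690 CPM and between 543 and 600 CPM, and both *Gsx* genes to between 8.87 and 11.3 CPM and between 3.79 and 8.94 CPM. As a ratio of group means, BPA over vehicle, the sums were 0.848 for the striatal neuron members, 0.893 for the precursor members, 0.667 for the *Gsx* genes, 0.821 for the MGE markers and 1.04 for the pallial markers. The part of the amount of ventral tissue in the lower levels of the members was not tested.

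**Figure D5:**
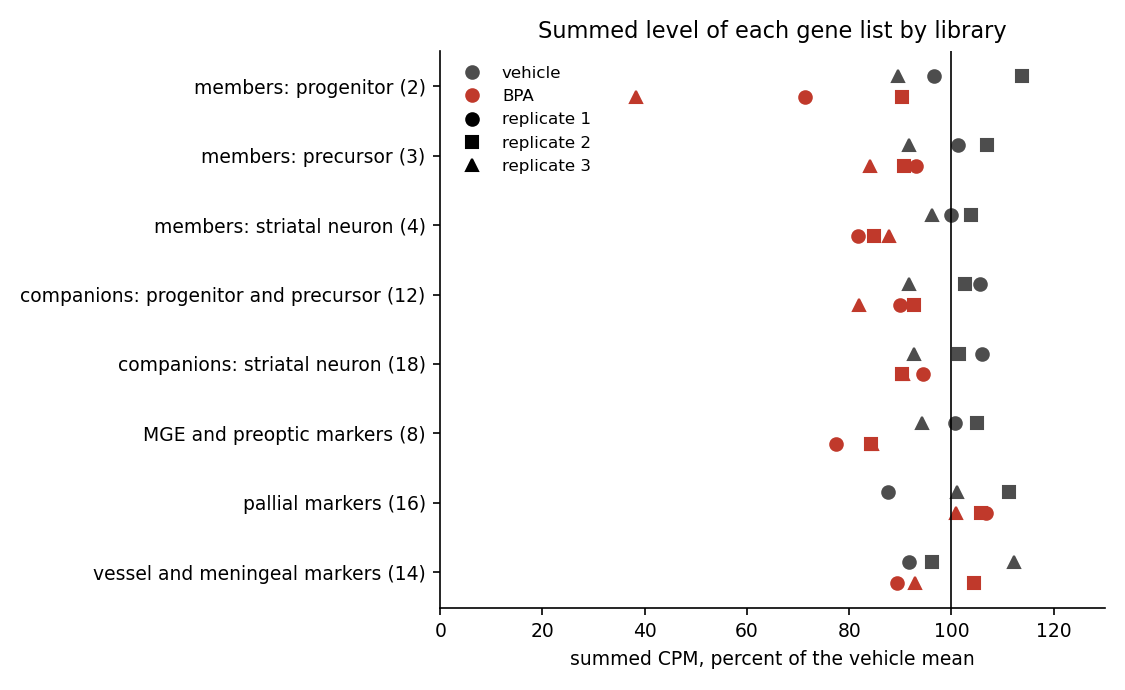
Summed CPM of each gene list in each library as a percentage of the vehicle mean, with the number of genes in parentheses, vehicle in grey, BPA in red, and symbols for replicates 1 to 3. BPA libraries lie below all vehicle libraries for the striatal neuron members and the MGE markers, and among them for the pallial markers.

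Markers of other cells did not separate the groups. The choroid plexus sum ranged from 12.6 to 230 CPM in vehicle and from 16.3 to 366 CPM in BPA, the blood sum of 8 genes from 279 to 595 CPM and from 328 to 412 CPM, and the microglial sum of 8 genes from 55.5 to 71.4 CPM and from 60.3 to 67.0 CPM. At an unadjusted p under 0.05 there were 0 of 3 choroid plexus markers tested, 0 of 8 microglial markers and 1 of 6 blood markers (*Hba-a1*, lower in BPA by a log2 fold change of -0.43). The share over all genes tested was 2.20%. In the sums, *Ttr*, the main secreted protein of the choroid plexus, accounted for most of the choroid plexus level in replicate 2 of each group, with 195 CPM in vehicle and 308 CPM in BPA.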

How the data were processed

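Read counts per gene had been deposited by the authors for 6 libraries (3 vehicle, 3 BPA), and groups were taken from the treatment label, with replicates numbered in accession order. Libraries of total RNA that keep strand were read from 1 end over 50 bases, as the study's methods state. Per the submitters' processing notes, TopHat2 2.0.14 and StringTie 1.2.4 were used with GRCm38, and the methods name featureCounts for counting. Strand and multi-mapping options are not given in the sources used here. The methods give the same fetal age as the labels, and the study's results text a later one.

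Counts were analysed in R 4.3.3. The filterByExpr function of edgeR 4.0.16 (minimum count 10, minimum total 15) kept 13741 genes with 99.7% of all counts, all 9 members included. TMM scaling was followed by the quasi-likelihood test of edgeR for BPA over vehicle. No covariate entered the fit, p-values were adjusted by Benjamini-Hochberg over all genes tested, and the threshold of 0.1 is that of the study. Standard errors and 95% intervals were derived from the test statistic. Log2 CPM for correlations used a prior count of 2. Levels treated as the floor are 3 counts. Coordinates and exonic lengths are from GENCODE M21 (GRCm38). Up to 5.35% of the 50-base words of a member's transcripts (*Sp9*) also occur in another gene, and 0 for *Gsx1*, *Gsx2*, *Sp8* and *Ebf1*. Scripts were tested on simulated data.

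The members and gene lists were chosen with earlier results of these data known. Named genes were all members, listed companions and paralogs with an unadjusted p under 0.05, without overlap or among the 3 highest per length in their list, and the 3 genes closest in pattern to each member. A few genes of these lists and of the closest genes are not reported here, and the counts and sums of the lists are given without them. *Neurod6*, *Rgs5*, *Pdgfrb*, *Kcnj8*, *Abcc9*, *Drd1*, *Drd2*, the MGE markers, *Hba-a1*, *Ttr*, the untested paralogs and the neighboring genes *Six3os1* and *Cir1* were named outside this rule. Alternatives were DESeq2 1.42.0, limma-voom (limma 3.58.1), the likelihood ratio and exact tests of edgeR, a robust dispersion fit, scaling by DESeq2 size factors, upper quartile or library size alone, no filter or a minimum of 10 CPM in 3 libraries, and omission of each library. Omission of both libraries high in choroid plexus markers was chosen after seeing the data.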

Additional observations from a re-analysis of the deposited data

How the results depend on the processing

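The 9 members were lower in BPA under the 16 alternatives, wherever they were tested, and without both libraries high in choroid plexus markers (*Gsx1* and *Gsx2* did not pass the minimum of 10 CPM), and 0 passed an adjusted p of 0.1 in any. The count of members with an unadjusted p under 0.05, 4 in the test reported, was 2 with DESeq2, limma-voom, the exact test and library size alone, and ran from 1 to 5 when 1 library was left out. The share of all genes with such a p was 2.20% in the test reported, 0.917% with DESeq2 and from 1.38% to 5.10% when 1 library was left out, the count of 5 coming from the fit with 1.38%. Members without overlap numbered from 6 to 7 in those fits, in which 12.2% to 19.7% of all genes did not overlap, since fewer libraries were compared. The median log2 fold change of the members ran from -0.32 to -0.20 when 1 library was left out. Over all genes, the count past the adjusted threshold was 3 by DESeq2, 2 by the exact test, 4 by likelihood ratio, 19 with no filter and 15 without both libraries high in choroid plexus markers, and from 0 to 1 when 1 library was left out, with no member among these calls. The cause was not tested.

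Of the 25 members, companions and paralogs named by rule, 3 changed direction, none with a call. Leaving out 1 library gave log2 fold changes from -0.16 to 0.096 for *Foxp4*, from -0.11 to 0.16 for *Meis3* and from -0.024 to 0.049 for *Sp3*. Without both libraries high in choroid plexus markers the values were 0.091 for *Foxp4*, 0.095 for *Meis3* and -0.022 for *Sp3*, and limma-voom gave 0.0020 for *Meis3*. The depth limits *Gsx1* most, with 3 to 33 counts per library. No paired analysis was possible because each title carries a number of its own, none is shared between the groups, and no label says that neighboring numbers mark a pair.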
